A study of Mus musculus with 8 samples.

Results

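Messages that encode cytokines are made in bursts and then destroyed quickly, and a small set of RNA-binding proteins sets how quickly. The genes of 8 such regulators are described here in Th17 cells with and without *Trim28*: *Zfp36*, *Zfp36l1*, *Zfp36l2*, *Zc3h12a*, *Zc3h12d*, *Rc3h1*, *Rc3h2* and *Elavl1*. They were picked by name for what their proteins do, with earlier results of these data known, from the 13704 genes listed in either of the 2 count tables, and all 8 were listed in both. RNA-seq was done on Th17 cells grown from C57BL/6 mice that were wild type (WT) or TRIM28fl/flxCD4cre (KO), in which Cre expressed from the *Cd4* promoter removes loxP-flanked *Trim28* in T cells. Naive CD4+ T cells, sorted from spleen and lymph nodes, were activated through CD3 and CD28, kept in TGF-β (0.5 ng/ml) and IL-6 (20 ng/ml) for 3 days, and given anti-CD3 again before RNA was taken. Each genotype had 1 library, so no difference between them has a replicate check, and no p-value is given. Whether the WT mice carried Cre or loxP alleles, how many mice gave cells to a culture, and the age and sex of the mice used for RNA are not given in the sources used here.

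The proteins of the *Zfp36* family (ZFP36, also called tristetraprolin, and its paralogs ZFP36L1 and ZFP36L2) bind AU-rich elements in the 3′ untranslated region (3′ UTR) of a message through a pair of CCCH zinc fingers and bring in the CCR4-NOT complex, which shortens the poly(A) tail. *Zc3h12a* encodes Regnase-1, an endoribonuclease that cuts messages of inflammation at stem-loops in the 3′ UTR, and *Zc3h12d* encodes a relative with the same type of nuclease domain. *Rc3h1* and *Rc3h2* encode Roquin-1 and Roquin-2, which bind stem-loops in messages such as *Icos* and *Tnfrsf4* and promote their decay, and which restrain helper T cells. *Elavl1* encodes HuR, which binds U-rich and AU-rich elements as well but in general protects the message.

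Many of these regulators carry, in their own messages, the sequence that the *Zfp36* family and HuR bind. The AU-rich nonamer searched was UUAUUUAUU, on the message strand only, in the 3′ UTR of the longest curated RefSeq transcript (GRCm38.p6). It was found at least once in 6 of the 8 genes, against 7.32% of the 10400 tested genes with an annotated 3′ UTR. The 6 are *Zfp36*, *Zfp36l1*, *Zfp36l2*, *Rc3h1*, *Rc3h2* and *Elavl1*, and the 2 endoribonuclease genes had none. Long 3′ UTRs hold more matches by their length, and those of *Rc3h1*, *Rc3h2* and *Elavl1* measured 7179, 5164 and 4818 bases against a median of 1013 bases. The 3′ UTR of *Zfp36*, with 774 bases, was shorter than that median. *Elavl1* was the only one of the 8 with more than 1 match, with 8 that partly overlap. A match describes the letters in this window and is not a shown binding site. For each of the 6 genes, 1 window of 29 bases is given below, 5′ to 3′ on the message, with every base of a nonamer in capitals. That of *Elavl1* does not hold all of its 8 matches. All windows lie in a 3′ UTR, and the first of them is that of *Zfp36* at chr7:28376951-28376979 on the minus strand.
Zfp36: uaugacgacuUUAUUUAUUguauuaagau
Zfp36l1: aacuguuggaUUAUUUAUUuuagaaauuc
Zfp36l2: acuauuuaacUUAUUUAUUaucuugugaa
Rc3h1: acuuuacucaUUAUUUAUUgagaugagga
Rc3h2: caaagacauuUUAUUUAUUuuacucugua
Elavl1: aaUUAUUUAUUUAUUUAUUUAUUuUUAUU
The windows of *Zfp36l1* (chr12:80108167-80108195), *Zfp36l2* (chr17:84184914-84184942), *Rc3h2* (chr2:37373287-37373315) and *Elavl1* (chr8:4285780-4285808) are also on the minus strand, and that of *Rc3h1* (chr1:160970043-160970071) is on the plus strand. Outside the nonamer the 3 *Zfp36* family windows differ from one another.

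The WT library held 6.65 M assigned reads, spread over 13078 genes, and the KO library 6.19 M over 12754 genes. Levels are given as CPM (reads of a gene per 1e+06 reads of its library), and a log2 fold change always means KO over WT, with a pseudocount of 0.5. Genes with 10 or more reads in the libraries together, 10881 in number, are called tested. A 95% interval is exact (Clopper-Pearson for a fold change, Poisson for a level) and reflects the counting of reads alone, which lack molecular identifiers and so are not independent molecules. A count of 3 reads, the floor used here, stands for 0.451 CPM in WT and 0.485 CPM in KO. *Trim28* had 4485 reads in WT and 180 in KO, which is 4.32% of the WT level. The T cell genes *Cd3e* (4407 and 4778 reads) and *Cd4* (7904 and 6598 reads) were high in both libraries. Of 10 T cell and Th17 markers, 9 were listed, *Ccr6* with only 5 and 7 reads. The intervals of 5 markers lay below 0 and of 3 above it, against 25.0% and 23.5% of all tested genes. The Th17 markers *Il17a* (log2 fold change -2.44), *Il17f* (-3.08) and *Il23r* (-0.76) were lower in KO. The markers of B cells summed to 12.5 CPM in WT and 7.11 CPM in KO, with *Pax5* at 8 and 0 reads. The markers of myeloid cells summed to 3.91 and 3.07 CPM, with *Lyz2*, *Csf1r* and *Adgre1* listed in neither library, and those of CD8 T cells to 7.97 and 4.69 CPM. In such bulk RNA, fewer cells that carry a message and less message per cell cannot be told apart. The files also hold few reads for some genes with several annotated transcripts: the median tested gene had 544.5 reads over both libraries where RefSeq has 1 curated transcript and 165 reads where it has 4 or more. *Rc3h2* has 2 curated transcripts and the other 7 regulators 1 each, and none of the 8 shares exonic bases with another annotated gene.

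The least-read of the 8 genes was *Zc3h12a*, with 796 reads in the libraries together. Levels of different genes were compared per kilobase of transcript (RPKM). In WT, *Zfp36l2* at 202 RPKM and *Zfp36l1* at 193 RPKM were the highest, with counting intervals that overlap (197 to 208 and 187 to 199). *Zc3h12d* followed at 175 RPKM. The next were *Zfp36* at 49.7 RPKM, *Elavl1* at 39.0 RPKM and *Zc3h12a* at 22.8 RPKM. The Roquin genes were lowest, with *Rc3h1* at 10.2 RPKM and *Rc3h2* at 9.71 RPKM, and these neighbours too had overlapping intervals. In KO the order was the same but for 1 step, since *Zc3h12d* at 139 RPKM stood above *Zfp36l1* at 129 RPKM, with intervals that do not overlap (135 to 144 and 124 to 134). Thus *Zc3h12d*, not *Zc3h12a*, held most of the endoribonuclease message in both libraries.

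**Figure D1:**
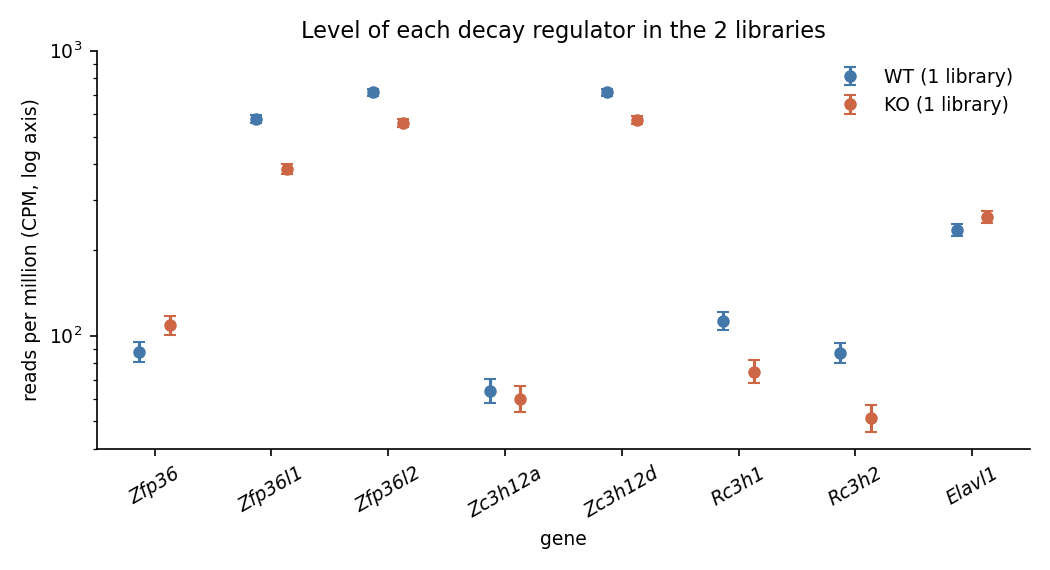
The level of each gene in CPM (log axis) in the WT library (blue) and the KO library (orange), 1 library each; bars are exact Poisson 95% intervals and cover counting error only. The KO point lies below the WT point for 6 genes and above it for *Zfp36* and *Elavl1*; for *Zc3h12a* the bars overlap.

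None of the 8 genes differed by 2-fold between the libraries, where 11.7% of all tested genes did. That share falls with depth, and among the 3478 genes read as often as the least-read regulator or more, it was 2.36% (1.47% lower and 0.891% higher in KO). In 5 genes the counting interval lay below 0, where it did in 25.0% of tested genes and in 33.8% of those 3478. In 2 genes it lay above 0, where it did in 23.5% of tested genes and 38.7% of those 3478, and in 1 gene, *Zc3h12a*, it held 0. None of the 8 was higher by 1.5-fold, against 10.8% of tested genes and 5.41% of those 3478. The median log2 fold change of the 8 genes was -0.34, against -0.02 for all tested genes and 0.03 for those 3478. With the length correction described below, these medians were -0.14, 0.0042 and 0.06. The differences of 7 genes exceed counting error before any correction for transcript length, and that of *Zc3h12a* does not. Whether any exceeds the spread between cultures cannot be told with 1 library per genotype.

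The 3 genes of the *Zfp36* family did not move together. *Zfp36* (chromosome 7, 28376784 to 28379228, minus strand, 2 exons) had 583 reads in WT and 673 in KO, or 87.7 and 109 CPM. It was the gene of the family that was higher in KO, by 0.31 on the log2 scale (95% interval 0.15 to 0.47). *Zfp36l1* (chromosome 12, 80107760 to 80113013, minus strand, 2 exons) had 3823 reads in WT and 2382 in KO, or 575 and 385 CPM. Its log2 fold change was -0.58 (from -0.65 to -0.50), and KO held 33.0% less. *Zfp36l2* (chromosome 17, 84183924 to 84187947, minus strand, 2 exons) had 4758 and 3455 reads, or 715 and 559 CPM, and its log2 fold change was -0.36 (from -0.42 to -0.29). Both paralogs that were abundant in WT were thus lower in KO, and the scarcer *Zfp36* was higher. The family as a whole summed to 1378 CPM in WT and 1053 CPM in KO, a log2 fold change of -0.39 (from -0.43 to -0.34).

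The balance inside the family can be read without any scaling of the libraries, since both genes of a pair come from the same library. *Zfp36* made up 6.36% of the family's reads in WT (exact binomial 95% interval from 5.87% to 6.88%) and 10.3% in KO (from 9.61% to 11.1%). The share of *Zfp36l1* was 41.7% in WT and 36.6% in KO, and that of *Zfp36l2* was 51.9% and 53.1%, with intervals that overlap. The ratio of *Zfp36* to *Zfp36l1* reads was 0.152 in WT and 0.283 in KO, 1.85 times higher (exact conditional 95% interval from 1.64 to 2.10). The ratio of *Zfp36* to *Zfp36l2* was 1.59 times higher in KO (from 1.41 to 1.79), and that of *Zfp36l1* to *Zfp36l2* was 0.858 times that in WT (from 0.802 to 0.918). Each of these 3 intervals excludes 1.

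The 2 endoribonuclease genes differed in level more than between libraries. *Zc3h12d* (chromosome 10, 7832470 to 7870397, plus strand, 6 exons) had 4760 reads in WT and 3528 in KO, or 716 and 570 CPM, and a log2 fold change of -0.33 (from -0.39 to -0.26). *Zc3h12a* (chromosome 4, 125118414 to 125127881, minus strand, 6 exons) had 425 and 371 reads, or 63.9 and 60.0 CPM. Its log2 fold change of -0.09 has an interval from -0.30 to 0.11, so a difference larger than these bounds was not seen and a smaller one was not detectable at this depth. *Zc3h12d* made up 91.8% of the reads of the pair in WT and 90.5% in KO. The ratio of *Zc3h12a* to *Zc3h12d* was 1.18 times higher in KO (from 1.01 to 1.37), or 0.24 on the log2 scale. This depends on transcript length, since with the length correction described below the value was 0.07 (from -0.14 to 0.29), an interval that includes 0. The related genes *Zc3h12b* (8 and 8 reads) and *Zc3h12c* (20 and 9 reads), named here after their values were seen, were near the lowest level that could be tested.

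Before any correction for transcript length, the Roquin genes were lower in KO, *Rc3h2* by the most of the 8 and *Rc3h1* by about as much as *Zfp36l1*. *Rc3h1* (chromosome 1, 160906411 to 160974976, plus strand, 20 exons) had 747 reads in WT and 462 in KO, or 112 and 74.7 CPM, and differed by -0.59 on the log2 scale (from -0.76 to -0.42). *Rc3h2* (chromosome 2, 37370069 to 37422903, minus strand, 22 exons) had 579 and 317 reads, or 87.1 and 51.3 CPM, a difference of -0.76 (from -0.97 to -0.56). They were the 2 genes of the 8 that were lower by at least 1.5-fold, where 17.7% of all tested genes were and 7.88% of the 3478 genes of like depth. *Rc3h1* passed the 1.5-fold limit narrowly, with 33.5% less in KO, and *Zfp36l1*, with 33.0% less, fell just short of it. The transcripts of *Rc3h1* and *Rc3h2*, of 11011 and 8967 bases, are also the longest of the 8. With the length correction described below, *Rc3h1* stood at -0.06 (from -0.23 to 0.11) and *Rc3h2* at -0.30. *Zfp36l1*, at -0.56, was then the lowest of the 8. The ratio of *Rc3h1* to *Rc3h2* was 1.29 in WT and 1.46 in KO, 1.13 times higher, with an interval from 0.940 to 1.36 that includes 1.

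*Elavl1*, the message of the stabilising protein HuR, was slightly higher in KO. It lies on chromosome 8 from 4284782 to 4325100 on the minus strand, with 6 exons, and had 1563 reads in WT and 1619 in KO, or 235 and 262 CPM. The log2 fold change was 0.16 (from 0.05 to 0.26). The other 7 genes, all of proteins that shorten the life of messages, summed to 2357 CPM in WT and 1809 CPM in KO, a log2 fold change of -0.38 (from -0.42 to -0.35). Most of this sum came from *Zfp36l2*, *Zc3h12d* and *Zfp36l1* (715, 716 and 575 CPM in WT). Within it *Zfp36* was higher in KO, and the interval of *Zc3h12a* held 0. The sum was not corrected for length. Set against the *Zfp36* family, whose elements HuR also binds, *Elavl1* had 0.171 reads per family read in WT and 0.249 in KO, 1.46 times more (from 1.35 to 1.58).

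**Figure D2:**
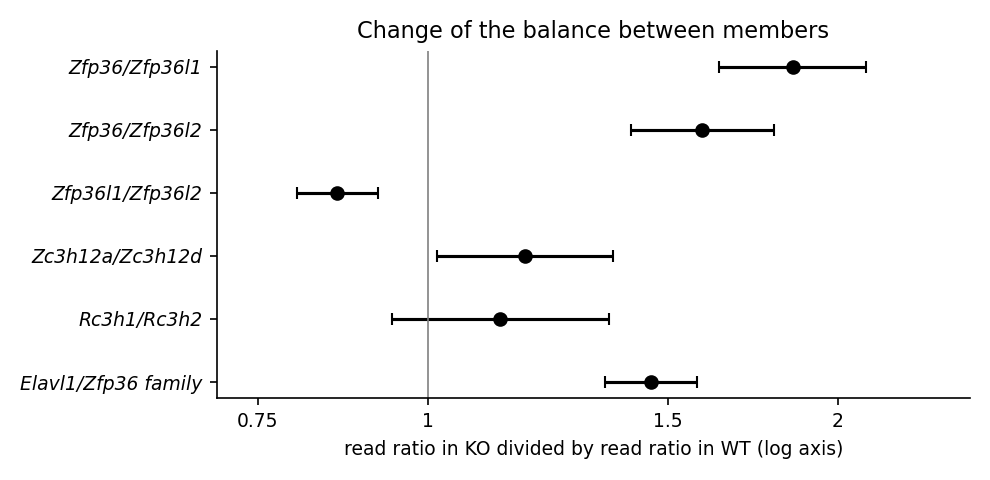
The read ratio of each pair in the KO library divided by that in the WT library (log axis), with exact conditional 95% intervals for counting error; the *Zfp36* family is the sum of its 3 genes. The ratio of *Zfp36* to *Zfp36l1* stands highest at 1.85, and the interval of *Rc3h1* to *Rc3h2* is the one that includes 1. With the length correction, not drawn, *Elavl1* to the *Zfp36* family stands highest, at 0.83 on the log2 scale against 0.70 for *Zfp36* to *Zfp36l1*, and the interval of *Zc3h12a* to *Zc3h12d* includes no change as well.

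Genes with long transcripts had lower fold changes in these libraries, and this touches the Roquin genes and *Elavl1* most. Transcript length and log2 fold change had a Spearman's rho of -0.40 over the 10816 genes for which both were known; genes are not independent replicates, and the part of this trend in the results was not tested beyond the correction that follows. A loess curve against length stood at -0.53 at the length of *Rc3h1*, at -0.47 for *Rc3h2*, at -0.34 for *Elavl1* and at 0.17 for *Zfp36*, whose transcript of 1765 bases is the shortest of the 8. With the curve taken off, *Rc3h1* moved to -0.06 (from -0.23 to 0.11), an interval that includes 0, and *Rc3h2* to -0.30 (from -0.50 to -0.10). *Elavl1* moved the other way, to 0.49 (from 0.39 to 0.59), the value furthest above 0 among the 8. *Zfp36l1* stayed at -0.56 (from -0.63 to -0.48), the value furthest below 0. *Zfp36l2* moved to -0.26 and *Zc3h12d* to -0.17, with intervals below 0, *Zc3h12a* to -0.10, and *Zfp36* to 0.14 (from -0.02 to 0.31), an interval that includes 0. No gene changed sign, and none reached 2-fold, where 10.3% of tested genes did so after the correction. The median of the 8 moved to -0.14, against 0.0042 for all tested genes. After the correction 0 of the 8 were lower by 1.5-fold and 0 higher, against 14.5% and 9.97% of tested genes.

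**Figure D3:**
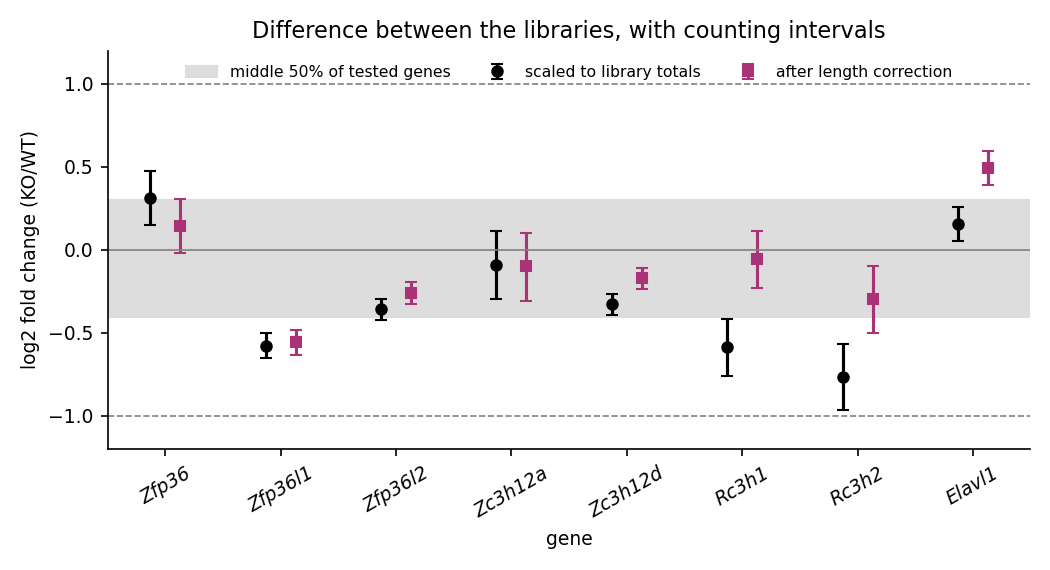
The log2 fold change (KO/WT) of each gene scaled to library totals (black circles) and after the length correction (purple squares), with 95% counting intervals; the grey band is the middle 50% of tested genes, from -0.41 to 0.30, and dashed lines mark 2-fold. *Zfp36l1* keeps its place, the Roquin genes move towards 0 and *Elavl1* moves away from it.

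**Figure D4:**
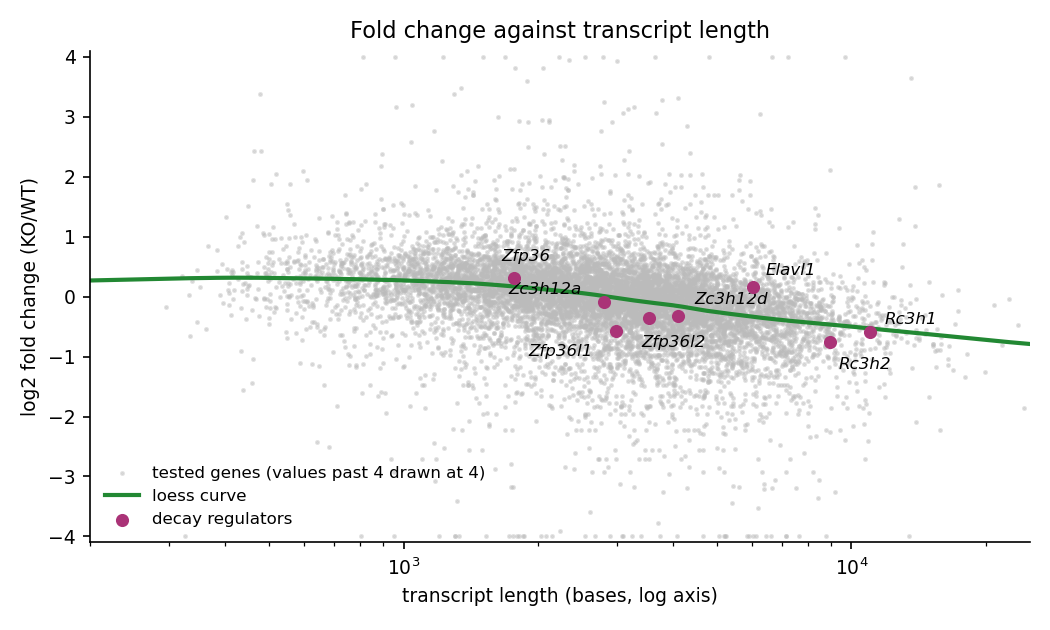
The log2 fold change (KO/WT) against transcript length in bases (log axis) for all tested genes with a length (grey), the loess curve (green) and the 8 regulators (purple). *Rc3h1* and *Rc3h2* lie at the long end, *Rc3h1* near the curve and *Rc3h2* below it. *Elavl1* lies above the curve and *Zfp36l1* below it.

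The machinery that these proteins recruit was set beside them, from lists chosen with earlier results of these data known. In the deadenylation list (CCR4-NOT, the PAN and PARN nucleases and the TOB and BTG adaptors), 14 of 19 genes were tested, none differed by 2-fold (11.7% of all tested genes did), and the intervals of 5 lay below 0 and of 2 above it, against 25.0% and 23.5% of all tested genes. *Btg1*, an adaptor of the deadenylase that had the most reads of the list, had 5234 reads in WT and 3725 in KO (log2 fold change -0.39). *Pan3*, of the PAN nuclease, had 1165 and 663 reads (-0.71), *Cnot6*, a catalytic subunit of CCR4-NOT, 1109 and 777 reads (-0.41), and *Tnks1bp1* 359 and 252 reads (-0.41). After the length correction these values were -0.13 for *Btg1*, -0.43 for *Pan3* and -0.09 for both *Cnot6* and *Tnks1bp1*. The scaffold gene *Cnot1* had 2 reads in WT and 0 in KO and *Cnot7* was listed in neither library; both, named here outside the naming rule, have 5 curated transcripts.

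In the decapping list, 16 of 17 genes were tested, with intervals below 0 for 5 and above 0 for 6, against 25.0% and 23.5% of all tested genes. Of the 16, 2 were lower by 2-fold, against 7.94% of all tested genes, and 2 were after the length correction. *Xrn1*, the nuclease that degrades decapped messages from the 5′ end, had 257 reads in WT and 80 in KO, a difference of -1.57 (from -1.96 to -1.21). *Ddx6*, a helicase of the decapping complex named here after its values were seen, was the other gene lower by 2-fold, with 45 and 10 reads, and it has 5 curated transcripts. *Dcp2*, the decapping enzyme, had 438 and 257 reads (-0.66), whereas *Lsm5* (45 and 70 reads, 0.74) and *Lsm6* (90 and 133 reads, 0.67), of the LSM ring that binds shortened tails, were higher in KO. *Edc4*, with the most reads, had 1354 and 1179 reads (-0.10). After the length correction *Xrn1* stood at -1.06, *Dcp2* at -0.21, *Lsm5* at 0.42, *Lsm6* at 0.79 and *Edc4*, with its sign turned, at 0.14.

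All 15 genes of the exosome and SKI list were tested, none differed by 2-fold (11.7% of all tested genes), and the intervals of 2 lay below 0 and of 5 above it (25.0% and 23.5% of all tested genes). Their median of 0.14 turned to -0.09 with the length correction. *Ttc37*, a scaffold of the SKI complex, had 259 reads in WT and 124 in KO (-0.96, from -1.28 to -0.64). *Skiv2l*, its helicase, had 1152 and 1204 reads (0.17). The exosome subunits *Exosc3* (432 and 515 reads), *Exosc4* (280 and 337) and *Exosc9* (137 and 164) had log2 fold changes from 0.36 to 0.37, and 0.09, 0.21 and 0.17 after the length correction. That of *Ttc37* was then -0.69 and that of *Skiv2l* 0.31. Among other proteins that bind messages, 11 of 14 were tested, and the 3 lower by 2-fold, *Celf1* (16 and 4 reads), *Upf1* (40 and 14) and *Zc3h12c*, named after their values were seen, rested on few reads. Of all tested genes 7.94% were lower by 2-fold, and after the length correction 2 of these 11 were, without *Zc3h12c*. *Khsrp*, whose protein binds AU-rich elements and promotes decay, had 4105 and 4807 reads (0.33). *Ythdf2*, the reader of N6-methyladenosine, had 819 and 516 reads (-0.56), and *N4bp1*, another endoribonuclease gene, 832 and 599 reads (-0.37). With the length correction *N4bp1* came to -0.0056, *Ythdf2* to -0.41 and *Khsrp* to 0.48. *Hnrnpd*, the gene of AUF1, was listed in neither library and has 4 curated transcripts.

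Signalling enzymes act on the regulators' proteins, and 11 of 12 such genes were tested. *Malt1*, the protease that cleaves Regnase-1 and the Roquins after the T-cell receptor is engaged, had 4871 reads in WT and 1830 in KO, or 732 and 296 CPM. It was the 1 gene of this list that differed by 2-fold (11.7% of all tested genes), with a log2 fold change of -1.31 (from -1.39 to -1.23) and of -1.04 after the length correction. Its partner *Bcl10* had 710 and 830 reads (0.33). *Mapkapk2*, the kinase that phosphorylates ZFP36 and curbs its activity, had 1932 and 2656 reads, or 0.56 on the log2 scale (from 0.48 to 0.65), and *Ppp2r1a*, a subunit of the phosphatase PP2A, 2902 and 3155 reads (0.23). With the length correction *Mapkapk2* stood at 0.57, *Bcl10* at 0.19 and *Ppp2r1a* at 0.13. Proteins and their phosphorylation were not measured here.

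Messages described as targets of these regulators were listed from general knowledge, with earlier results of these data known, and 19 of 32 had enough reads. Of these, 5 were lower in KO by 2-fold and 1 was higher, against 7.94% and 3.75% of all tested genes. The list holds *Il17a* and *Il17f*, which the paper reports as reduced in KO, so this count was partly set by the choice of genes. The median log2 fold change was -0.34, also with *Il10* (26 and 0 reads) at the floor of 3 reads in the KO library. The cytokine messages *Il17a* (2226 and 381 reads, -2.44), *Il17f* (3143 and 345 reads, -3.08) and *Il21* (3537 and 1233 reads, -1.42) were lower, with *Rel* (193 and 85 reads, -1.07) and *Il10*, the last pair named after their values were seen. The chemokine message *Ccl3* (57 and 115 reads, 1.11) was higher, and within 2-fold (0.82) after the length correction, as was *Rel* (-0.66). *Ier3* (154 and 80 reads, -0.84), named outside the rule, reached -1.10 with the correction. Thus 5 targets were then lower by 2-fold and 0 higher, where 10.3% of all tested genes differed in either direction. *Irf4*, with the most reads of the list, had 10145 and 5222 reads (-0.85). Over the 19 targets the intervals of 10 lay below 0 and of 3 above it, against 25.0% and 23.5% of all tested genes. The Roquin targets *Icos* and *Tnfrsf4*, which the naming rule did not pick, differed by less than 1.5-fold. *Icos* had 1869 and 1494 reads (-0.22, from -0.32 to -0.12) and *Tnfrsf4* 1417 and 1466 reads (0.15, from 0.05 to 0.26). *Nfkbid*, also outside the rule, had 412 and 262 reads (-0.55, from -0.78 to -0.32), and -0.67 after the length correction. With the length correction *Icos* stood at -0.16, and *Tnfrsf4*, whose transcript has 1155 bases, turned to -0.10, so its direction depends on the correction.

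The AU-rich nonamer stood in some of the targets that were lower and not in others. Of the 19 tested targets, 8 held it, and *Il17a* and *Il17f* did not, although they hold 7 and 3 copies of the shorter element AUUUA. Of the 8 holders, *Il21* and *Rel* were lower by 2-fold. That share was 10.8% among all tested genes with a nonamer and 7.35% among those without. These shares were not corrected for length, and the median transcripts of the 2 groups had 4320 and 2859 bases. Their median log2 fold changes after the length correction were -0.0096 and 0.012. *Il21* then stood at -1.36 and *Rel*, within 2-fold, at -0.66. The other holders are named outside the naming rule. *Notch1* had 3549 and 2136 reads (-0.63, from -0.71 to -0.55), and -0.14 after the length correction. *Il2*, *Fos* and *Dusp1* had intervals that include 0. So did *Tnf* (28 and 29 reads) and *Csf2* (7 and 9 reads), with 5 and 4 overlapping nonamers and named for their clusters. Their few reads left wide intervals, from -0.65 to 0.96 and from -1.13 to 2.13, so nothing about clusters can be read from them. The windows of 4 of these targets are given to show how a cluster of nonamers looks beside a single one, again 5′ to 3′ with the nonamers in capitals.
Il21: aacuuaaugaUUAUUUAUUauguauuugg
Rel: cucccagacuUUAUUUAUUuuuuuuagcu
Tnf: uuaUUAUUUAUUAUUUAUUUAUUAUUUAU
Csf2: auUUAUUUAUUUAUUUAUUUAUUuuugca
They lie at chr3:37222826-37222854 (*Il21*), chr11:23737834-23737862 (*Rel*), chr17:35199682-35199710 (*Tnf*) and chr11:54247321-54247349 (*Csf2*), all in a 3′ UTR on the minus strand of GRCm38.

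**Figure D5:**
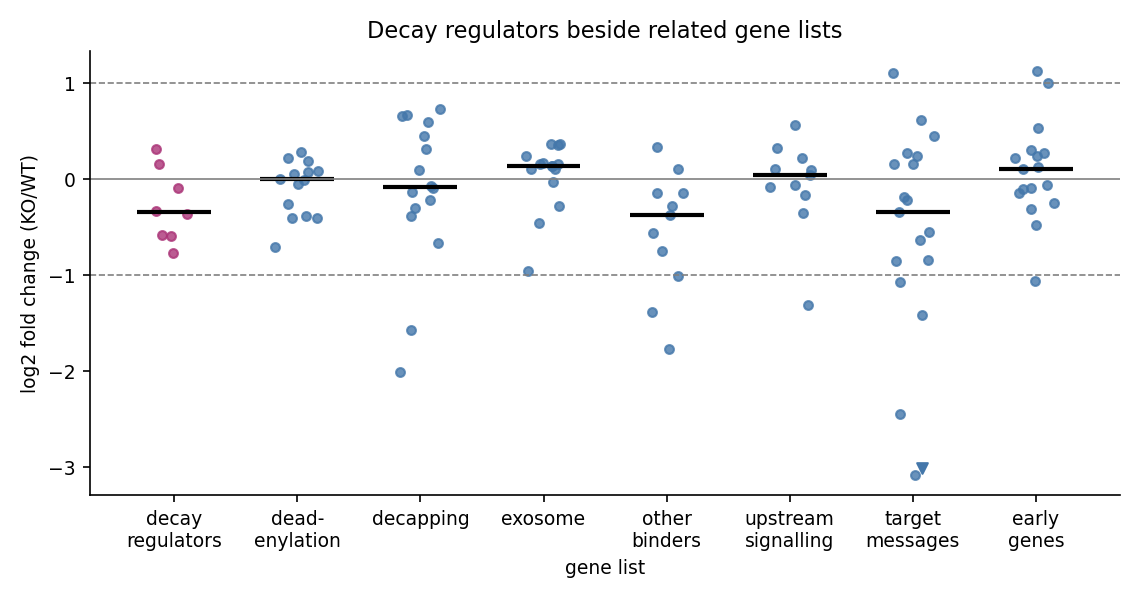
The log2 fold change (KO/WT) of each tested gene of the 8 regulators (purple) and of 7 related lists (blue), with black lines at the median and dashed lines at 2-fold; the triangle is *Il10*, drawn at its floor of 3 reads in KO. The regulators lie within 2-fold, and the target messages spread furthest, down to *Il17f* at -3.08.

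*Zfp36* is also an early gene of T-cell activation, so the early genes of re-stimulation are given beside it. All 17 of them were tested, and the intervals of 2 lay below 0 and of 6 above it, against 25.0% and 23.5% of all tested genes. Their median was 0.10, and -0.0070 after the length correction. *Junb*, with the most reads, had 6920 and 6907 reads (0.10), *Jun* 608 and 818 reads (0.53) and *Nfkbia*, the NF-κB inhibitor, 1866 and 2143 reads (0.30). *Egr1* (1395 and 931 reads, -0.48) and *Egr3* (350 and 156 reads, -1.06) were lower in KO. After the length correction *Junb* turned to -0.06, *Jun* stood at 0.59, *Nfkbia* at 0.11, *Egr1* at -0.44 and *Egr3* at -0.91. *Fosb* (15 and 31 reads) and *Nr4a2* (11 and 21 reads), named here after their values were seen, were higher by 2-fold on few reads. Of all tested genes 3.75% were higher by 2-fold, and the interval of *Nr4a2* (from -0.08 to 2.24) includes 0. *Egr3* was the 1 early gene lower by 2-fold, against 7.94% of all tested genes. After the length correction 0 early genes were lower by 2-fold and 2 higher. The early genes thus lay on both sides of 0, and the part of re-stimulation in the value of *Zfp36* was not tested.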

How the data were processed

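RNA-seq of WT and KO Th17 cells was analysed, with 1 library per genotype; the 6 ChIP-seq and input samples were not analysed here. According to the methods of the study, reads were mapped to mm10 with SOAP2. The submitters' processing notes also name bcl2fastq, HTSeq, Bowtie and SICER 1.1 without saying for which data; the counting settings, strand and annotation are not given in the sources used here. The authors deposited raw counts, without normalization, of reads that fell uniquely in a gene. A gene that one table leaves out was given 0 reads there. Reads lost where several transcripts or genes fit cannot be recovered.

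Genes, transcripts and sequences came from RefSeq GRCm38.p6, the assembly behind mm10. Of 13704 names, 12841 matched a current symbol and 793 a unique older one, and a length was found for 99.4% of tested genes. The curated transcript with the most bases stood for each gene. The members and gene lists were chosen with earlier results of these data known. The genes named were all 8 regulators, *Trim28* and, from each list, the gene with the most reads and the 4 largest log2 fold changes among genes with at least 50 reads in the higher library and an interval without 0; exceptions are marked. The 2-fold limit is that of the study, whose further limit on the false discovery rate was not applied here. Counts past 2-fold are thus not comparable with those of the study. edgeR's and DESeq2's tests have no residual degrees of freedom with 1 library per genotype, so no test was run. Scaling factors came from edgeR 4.0.16 and DESeq2 1.42.0, and a loess curve (span 0.3) from statsmodels 0.14.6; SciPy 1.17.1, Python 3.11.15 and R 4.3.3 were used. The calculations were tested on simulated data.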

Additional observations from a re-analysis of the deposited data

How the results depend on the processing

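No value of the 8 regulators has a replicate check, and counting intervals leave out the spread between cultures. No paired analysis was possible because each genotype had 1 library. Over 48 values of single regulators (a pseudocount of 5, scaling by TMM, upper quartile or DESeq2 size factors, and corrections for length and for GC content), all 48 kept their sign, 0 reached 2-fold and 41 stayed inside their counting interval; of the other 7, 6 came with the length correction and 1 with the GC correction. The median of the 8 (-0.34) moved to -0.14 with the length correction and to -0.38 with the GC correction. The number of regulators past the threshold went from 0 to 2 at 1.5-fold. The number of tested genes past 2-fold (1272) moved to 813 with a pseudocount of 5, 3164 without a filter, 379 with at least 100 reads, 3097 at 1.5-fold and 82 with at least 796 reads, a filter chosen after seeing the data. With the length correction, also chosen for the ratios after seeing the data, the log2 change of *Zfp36* to *Zfp36l1* moved from 0.89 to 0.70, of *Zfp36* to *Zfp36l2* from 0.67 to 0.40 and of *Elavl1* to the *Zfp36* family from 0.54 to 0.83. The other 3 ratios kept their direction, with *Zc3h12a* to *Zc3h12d* at 0.07, an interval then including 0, *Zfp36l1* to *Zfp36l2* at -0.30 and *Rc3h1* to *Rc3h2* at 0.24. The cause of the length trend was not tested.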

Other observations

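Across all 10400 tested genes with an annotated 3′ UTR, the difference between the libraries went with AU-rich elements before the length correction and hardly after it. The 3484 genes without the AUUUA element had a median log2 fold change (KO/WT) of 0.13, the 6155 genes with AUUUA but no nonamer -0.08, the 602 genes with 1 nonamer -0.17 and the 159 genes with 2 or more -0.32. After the length correction the same medians were 0.03, 0.0026, -0.0013 and -0.05. The genes of these groups also differ in length, with median transcripts of 1957.5, 3459, 4282 and 4578 bases. *Elavl1*, with 8 nonamers and a transcript of 6030 bases, stood at 0.16 before the correction and 0.49 after it, above the median of its group both times.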
